A study of Mus musculus with 2 samples.

Results

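B2m, H2-K1, Psmb8 and Psmb10 are 4 mouse genes that encode the light chain and 1 heavy chain of classical MHC class I and 2 catalytic subunits of the immunoproteasome. They were chosen because their signals were lower with FGF2 than in control in these same 2 arrays, so their values are a description and no test is made of them. Probes were assigned to genes by the NCBI gene number read from the probe identifier. The B2m probe carries no such number and was assigned by the RefSeq accession NM_009735 in its identifier. Each of the 4 genes had 1 probe, out of 7413 genes with a named probe on the array. All 4 were detected (detection score of at least 0.99) on at least 1 array, as were 3007 named genes in all.

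The cells were embryonic fibroblasts of the outbred NMRI mouse stock, in which cell division had been stopped with mitomycin C, which crosslinks DNA. They were plated on gelatine at 55000 cells per square centimetre and moved a day later to the medium used for human embryonic stem cells, with serum replacement. The FGF2 group was 1 culture given FGF2, a fibroblast growth factor, at 40 ng/ml for 24 h. The control group was 1 culture kept for 24 h in the same medium without FGF2. Each culture was measured on 1 Illumina bead array, so there are no replicates and no p-value is given for any difference. How many embryos each culture came from was not stated in the labels.

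MHC class I molecules carry peptides from inside the cell to its surface, where cytotoxic T cells inspect them. The peptides come from the proteasome, are pumped into the endoplasmic reticulum by the TAP transporter and are loaded onto a heavy chain paired with beta-2 microglobulin. Interferons are known to raise the heavy and light chains and to install the immunoproteasome, in which 3 inducible catalytic subunits take the place of the constitutive ones.

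The bead arrays gave an intensity for each of 24044 probes. The FGF2 array had 7424 detected probes (30.9%), the dimmest of them at 184.9, and a median signal of 147.5 over all probes. The control array had 7599 detected probes (31.6%), the dimmest at 194.6, and a median of 152. Ratios below are FGF2 over control on the log2 scale after quantile normalization, with signals under the lowest detected one of each array raised to it. The error given after ± combines the bead standard deviations of both arrays. It covers spread within an array only and says nothing of variation between cultures.

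B2m encodes beta-2 microglobulin, the light chain shared by class I molecules. Its deposited signal was 6681 with FGF2 and 10923 in control. These were among the brightest signals of both arrays, above 99.5% of probes with FGF2 and 99.7% in control. After normalization the log2 ratio was −0.56 ± 0.066, or 1.48-fold lower with FGF2.

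H2-K1 encodes a classical class I heavy chain, which holds the peptide. Its deposited signal was 682.6 with FGF2 and 1485 in control, which is 3.69 and 7.63 times the lowest detected signal of the same array. The log2 ratio was −0.87 ± 0.074, so the FGF2 signal was 54.6% of that in control. H2-K1 minus B2m was −0.31 ± 0.099 on the log2 scale, a difference larger than its bead error. Heavy chain genes are similar in sequence and vary between mouse strains, and which of them the probe binds was not tested here.

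Psmb10 encodes the immunoproteasome subunit MECL-1, which takes the place of the constitutive subunit encoded by Psmb7. Its deposited signal was 422.1 with FGF2 and 998.9 in control. Its log2 ratio of −0.99 ± 0.070, or 1.99-fold lower, was the largest measured reduction of the 4 and the 83rd lowest of 3007 named genes. H2-K1 was the 98th lowest and B2m the 217th. Psmb8, whose ratio is a bound, has no exact rank, and the bound itself would be the 155th.

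Psmb8 encodes LMP7, which takes the place of the constitutive subunit encoded by Psmb5. Its deposited signal was 178.8 with FGF2 and 323.7 in control. The detection score was 0.975 with FGF2, just under the limit, and 1 in control, so Psmb8 was not well above background with FGF2 and passed through its control signal. The reduction is therefore a bound, at least 1.58-fold lower with FGF2 after quantile normalization (log2 ratio −0.66 ± 0.082) and 1.48-fold with median scaling.

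**Figure D1:**
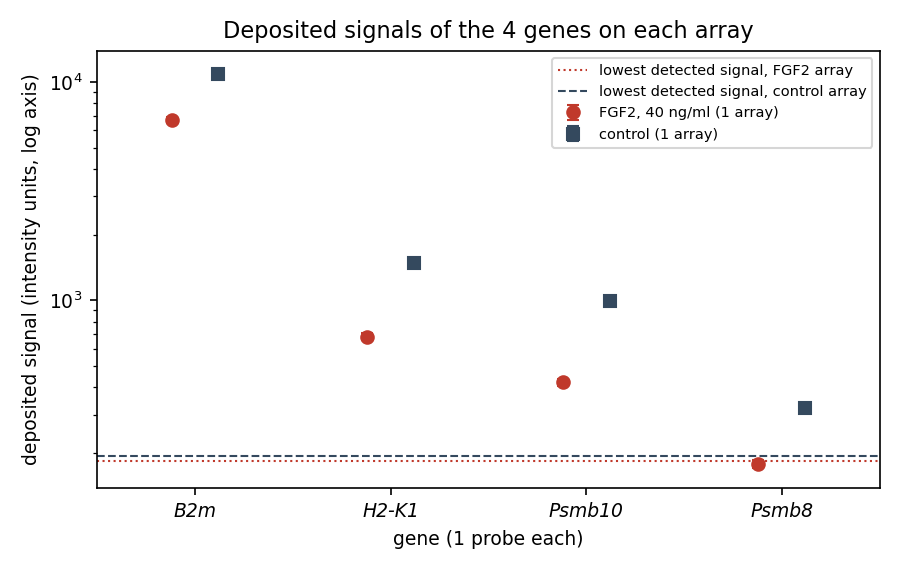
Deposited signals (intensity units, log axis) of B2m, H2-K1, Psmb10 and Psmb8 on the FGF2 array (circles, left) and the control array (squares, right), 1 array each. Error bars are bead standard deviations and mostly lie within the points; lines mark the lowest detected signal of each array. The FGF2 point lies below the control point for each gene, and Psmb8 with FGF2, at 178.8, lies below both lines.

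Of the 3 genes detected on both arrays none reached a 2-fold reduction, though Psmb10 passed it in 5 of 7 treatments of the signals, and 2 reached 1.5-fold. Psmb8 was past 1.5-fold here and in 5 of 6 treatments in all, but at 1.48-fold with median scaling. Whether it reached 2-fold is not known because its value is a bound. Over all 3007 named genes detected, 2.59% were lower by 2-fold or more with FGF2 and 6.78% by 1.5-fold or more, while 1.46% and 5.29% were higher by these folds. These shares are given for scale only, since the 4 genes were chosen on the same ratios. The median log2 ratio was −0.77 over the 4 genes and 0.028 over all 3007. Without normalization the median of all genes moved to −0.14. Of all 2-fold differences 36.1% were higher with FGF2 under quantile normalization, 19.9% with signals as deposited and 50.4% in the authors' value table. The last share covers only the 2641 genes with a value for both arrays. Over genes detected on both arrays the share under quantile normalization was 37.6%.

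**Figure D2:**
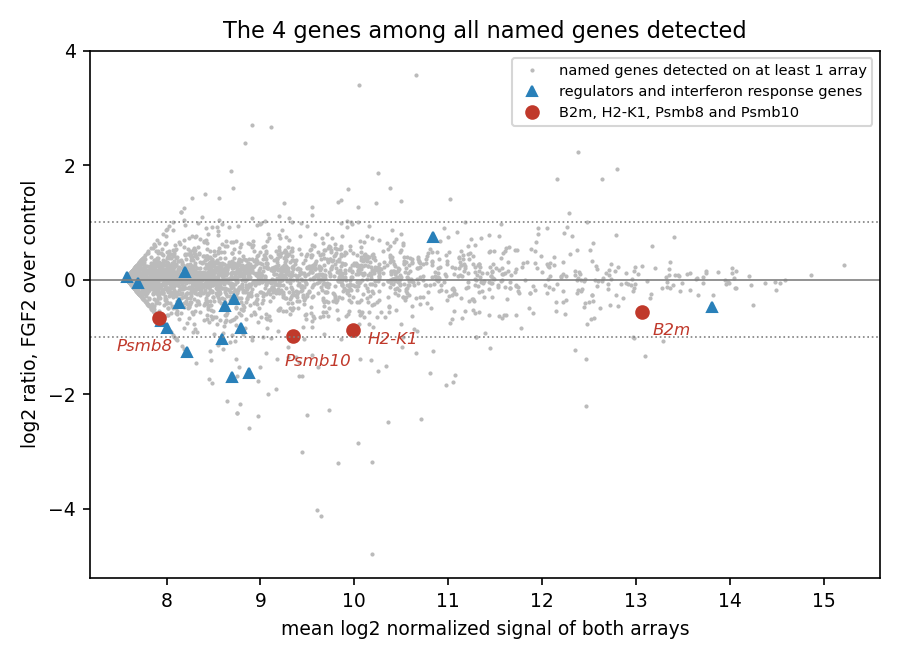
Log2 ratio of FGF2 over control against the mean log2 normalized signal, for 3007 named genes (grey), the 4 genes (red circles) and the detected regulators and interferon response genes (blue triangles); dotted lines mark 2-fold. The 4 genes lie between −0.99 and −0.56, over a wide range of signal.

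The promoters of B2m, H2-K1 and Psmb8 are shown because class I promoters are known to be read by NF-kappa-B factors and by factors that interferon activates, such as IRF proteins. The sequences are the 250 bases before the RefSeq gene start in build GRCm38.p6, 5′ to 3′ on the strand of the gene, and all 4 genes were found in that table. Capitals mark the letters of 4 searched patterns on either strand. These are GAANNGAAA and GAAANNGAAA, cores of interferon response elements with different spacing, GGGNNNNNCC, a loose form of the kappa-B site, and TTCNNNGAA, the form of a GAS (gamma-activated) site. The B2m window lies at chr2:122147437-122147686 on the plus strand, the H2-K1 window at chr17:34000348-34000597 on the minus strand and the Psmb8 window at chr17:34197945-34198194 on the plus strand. H2-K1 has 2 windows in the table, and the one listed first is shown.
B2m: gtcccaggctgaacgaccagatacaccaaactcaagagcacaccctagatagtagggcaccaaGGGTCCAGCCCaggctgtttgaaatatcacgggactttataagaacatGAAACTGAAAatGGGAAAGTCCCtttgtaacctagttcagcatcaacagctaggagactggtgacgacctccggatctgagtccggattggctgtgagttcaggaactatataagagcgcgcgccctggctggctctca
H2-K1: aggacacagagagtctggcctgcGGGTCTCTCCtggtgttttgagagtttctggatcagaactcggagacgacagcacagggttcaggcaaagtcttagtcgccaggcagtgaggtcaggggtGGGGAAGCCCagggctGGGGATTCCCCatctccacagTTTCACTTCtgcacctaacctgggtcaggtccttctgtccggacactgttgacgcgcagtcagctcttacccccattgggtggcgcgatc
Psmb8: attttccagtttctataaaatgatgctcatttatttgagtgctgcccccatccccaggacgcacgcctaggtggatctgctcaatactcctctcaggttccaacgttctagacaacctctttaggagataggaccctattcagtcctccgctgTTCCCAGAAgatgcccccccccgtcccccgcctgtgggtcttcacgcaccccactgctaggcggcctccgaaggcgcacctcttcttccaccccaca

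The B2m window holds GAAACTGAAA from 139 to 130 bases before the start, followed after 2 bases by the kappa-B-like run GGGAAAGTCCC. The H2-K1 window has a kappa-B-like run and an interferon response element core in the other order. The run GGGGATTCCCC comes first, and TTTCACTTC, which is GAANNGAAA on the other strand, lies from 90 to 82 bases before the start. Both windows also hold TGACG and ATTGG, patterns found in the class I promoter module that binds CREB and NF-Y factors. The Psmb8 window holds TTCCCAGAA from 97 to 89 bases before the start, and none of the 6 patterns was found in the Psmb10 window.

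Among 32851 windows of the same length, 6.31% hold GAANNGAAA, 2.98% GAAANNGAAA, 45.8% GGGNNNNNCC, 7.02% TTCNNNGAA, 17.8% TGACG and 33.8% ATTGG. The patterns were chosen with these windows in view, may overlap each other and are matches of letters only. In the counts below a gene counts if any of its windows holds a pattern, and the 2 interferon response element cores are pooled. Those counts per gene cannot be set directly against the shares of single windows. Of 10 detected class I pathway genes with a window, 4 held 1 of the interferon response element cores, namely H2-K1, B2m, H2-T22 and H2-T23. Of 13 detected genes of the standard proteasome with a window, 2 did, namely Psmb6 and Psmb3. The other patterns were held by 5 of the 10 class I pathway genes and 9 of the 13 standard proteasome genes for GGGNNNNNCC, 4 of 10 and 6 of 13 for TGACG, 1 of 10 and 1 of 13 for TTCNNNGAA, and 6 of 10 and 5 of 13 for ATTGG.

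The other class I heavy chain genes were unequal. H2-T23, which encodes the nonclassical chain Qa-1, had a signal of 334.8 with FGF2 and 631.2 in control and a log2 ratio of −0.68 ± 0.079, or 1.61-fold lower. H2-Q2, a chain of the Q region, had 1609 with FGF2 and 2743 in control and a ratio of −0.55 ± 0.062. The other H2-Q2 probe was detected on neither array, with 145.7 with FGF2 and 140.5 in control. H2-T10 and H2-T22, nonclassical chains known as ligands of gamma-delta T cells, had log2 ratios of 0.00093 ± 0.083 and 0.082 ± 0.084, each within its bead error of 0. H2-T10 had 219.1 with FGF2 and 245.4 in control, and H2-T22 had 342.5 with FGF2 and 375.1 in control. Both ratios were below 0 with signals as deposited, at −0.16 and −0.13, and that of H2-T10 also with loess, at −0.031. H2-T23 and H2-T22 each had another probe, which was detected on neither array. Which heavy chain genes the probes of this list bind was not tested. Of 15 genes of this list with a named probe 6 were detected, and 2 of these, H2-K1 and H2-T23, were at least 1.5-fold lower. The share over all named genes detected was 6.78%, and H2-K1 was itself chosen for its lower signal.

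Peptide loading was represented by 1 detected gene out of 4 with a named probe. Tapbp encodes tapasin, which holds empty class I molecules next to the transporter. Its signal was 191.8 with FGF2 and 309.7 in control, with a log2 ratio of −0.54 ± 0.075, or 1.46-fold lower. The FGF2 signal was only just above the lowest detected one, and the reduction passed 2-fold when background was subtracted (−1.11) and in the authors' value table (−1.20). Tap1, Tap2 and the third inducible proteasome subunit gene, Psmb9, have no named probe and are not analysed here. Over the class I pathway 18 probes were detected on neither array, with signals between 106.4 and 162.3 with FGF2 and between 106.3 and 179.4 in control. Probes for H2-D1, the other classical heavy chain gene, and for Canx and Erap1 were among them.

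The PA28 activator genes were lower by less than Psmb10. Psme1 and Psme2 encode the interferon-inducible alpha and beta subunits of the PA28 ring, which caps the proteasome and alters the peptides it releases. The brighter Psme1 probe had 1059 with FGF2 and 1837 in control (log2 ratio −0.54 ± 0.058), and the dimmer one 697.6 with FGF2 and 1250 in control (−0.58 ± 0.071). Psme2 had 272.3 with FGF2 and 424.7 in control (−0.43 ± 0.085). All 4 detected genes of the immunoproteasome and PA28 list were below 0, with a median of −0.60, and 2 were at least 1.5-fold lower. These 2, Psmb10 and Psmb8, were chosen for lower signals. Of the 3 genes of the list detected on both arrays 1 was at least 1.5-fold lower. Over all named genes detected, 44.7% were below 0 and 6.78% at least 1.5-fold lower.

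Taking the class I chains, loading and immunoproteasome lists together, 11 of 23 genes with a named probe were detected. Of these, 9 had ratios below 0, 4 were at least 1.5-fold lower, none was 1.5-fold higher and the median was −0.55. Over all 3007 named genes detected, 44.7% were below 0, 55.1% above 0 and 6.78% at least 1.5-fold lower. The counts of the 11 include the 4 genes chosen for lower signals, of which Psmb8 entered through control alone. Of the 10 detected on both arrays, 8 were below 0 and 3 at least 1.5-fold lower. Without the 4 chosen genes, 5 of the remaining 7 were below 0, 1 was at least 1.5-fold lower and the median was −0.54. These 7 are not free of selection either, since the lists were chosen with earlier results of these data known. Which heavy chain genes their probes bind was not tested.

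Most subunits of the standard proteasome had ratios above the median of all genes. Psmb5, which encodes the constitutive subunit that LMP7 displaces, had 1005 with FGF2 and 776.4 in control. Its log2 ratio was 0.62 ± 0.076, or 1.54-fold higher. It passed 1.5-fold in 5 of 7 treatments of the signals and was at 0.37 with signals as deposited. The log2 ratio of Psmb8 minus that of Psmb5 was −1.28 ± 0.11, a bound because of Psmb8, and lay between −2.09 and −1.18 over the 6 ways of treating the signals that gave a value. Psmb6, the constitutive counterpart of Psmb9, had 3362 with FGF2 and 3398 in control and a ratio of 0.19 ± 0.064, which turned to −0.016 with signals as deposited. Psmb7, the counterpart of Psmb10, has no named probe.

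The remaining 20S and assembly genes lay between −0.21 (Psma4, an alpha ring subunit) and 0.20 (Psmb3, a beta ring subunit), with 5 detected and a median of 0.15. The 8 detected genes of the 19S cap and other activators lay between 0.038 (Psmd11, which is a bound) and 0.59 (Psmd2, a 19S base subunit). Their median was 0.27, and 1 of the 8, Psmd2, was at least 1.5-fold higher, against 5.29% of all named genes detected. Psmd2 passed 1.5-fold in 4 of 7 treatments of the signals and was at 0.34 with signals as deposited. Its dimmer probe gave 0.098. The median of the 20S and assembly genes was −0.080 and that of the 19S genes 0.059 with signals as deposited, on a scale where the median of all genes was −0.14. Psme4, which encodes the PA200 cap that is not part of the interferon-induced set, was at 0.083 ± 0.071. The log2 ratio of Psme1 minus that of Psme4 was −0.62 ± 0.091, and that of Psme2 minus Psme4 was −0.52 ± 0.11. Of the 15 detected standard proteasome genes 13 were above 0, against 55.1% of all named genes, and none was 1.5-fold lower. These lists too were chosen with earlier results of these data known. With signals as deposited 8 of the 15 were above 0 and 12 were above the median of all genes. On that scale none of the 11 class I pathway genes, which include the 4 chosen ones, was above 0, and 1 was above that median.

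**Figure D3:**
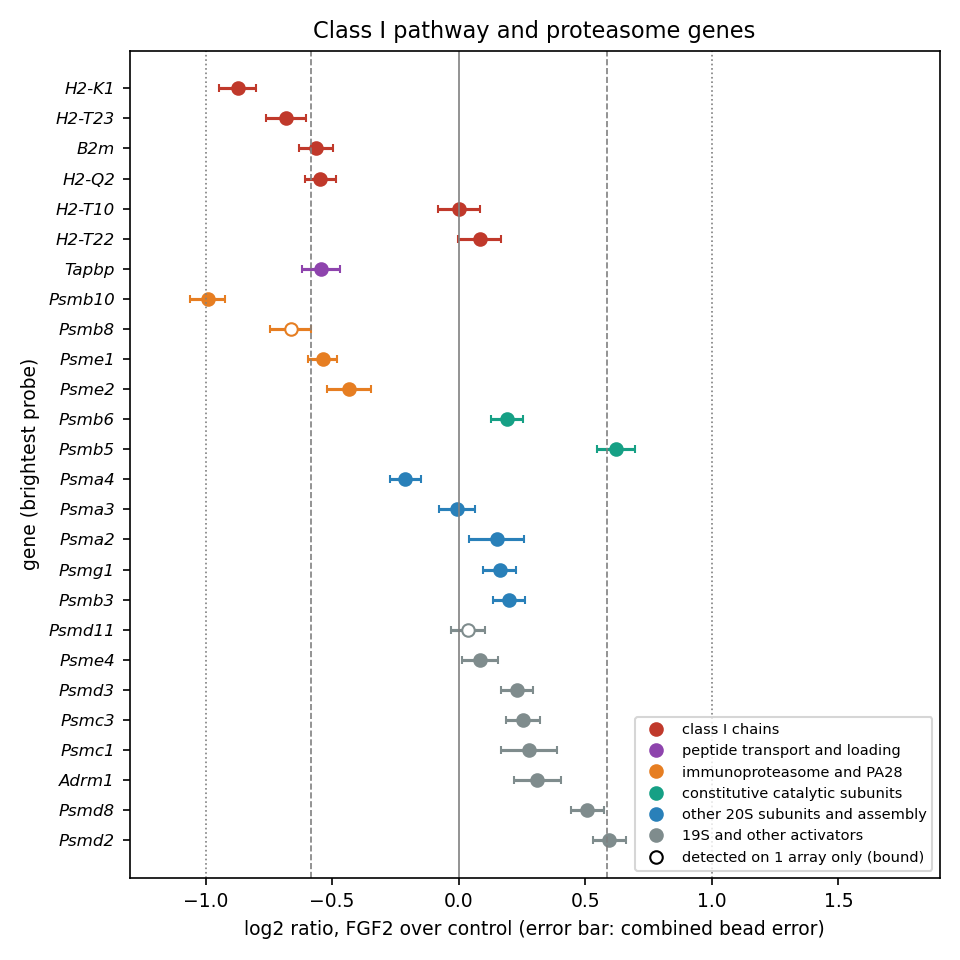
Log2 ratio of FGF2 over control for each detected gene of 6 lists, with the combined bead error; dashed lines mark 1.5-fold, dotted lines 2-fold, and open circles are bounds from genes detected on 1 array. Of 11 class I pathway genes 9 lie below 0, and of 15 standard proteasome genes 13 lie above 0 (8 with signals as deposited).

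Regulators of class I genes and of the interferon pathway were measured by 9 detected genes. Irf9, an interferon-activated transcription factor, had 252.2 with FGF2 and 597.4 in control (−1.03 ± 0.089). Irf7, a factor that amplifies type I interferon, had 172.9 with FGF2 and 337.8 in control. It was at least 1.65-fold lower after quantile normalization and 1.55-fold with median scaling. Ifngr2, a chain of the interferon gamma receptor, was 1.68-fold higher (0.75 ± 0.066), with 2214 with FGF2 and 1536 in control. The other 6 genes lay between −0.47 and 0.14, and the list's median was −0.33. Nlrc5, the main activator of class I promoters, has no named probe.

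The lower class I genes stood beside lower interferon response genes. All 6 detected genes of that list were below 0, with 3 lower by 2-fold or more, 5 by 1.5-fold or more and a median of −1.06, against 44.7% below 0, 2.59% at 2-fold and 6.78% at 1.5-fold over all named genes. Ifit3 and Mx2 entered through control alone, and of the 4 genes detected on both arrays 2 were lower by 2-fold or more and 3 by 1.5-fold or more. Igtp, an interferon-inducible GTPase, had 217.3 with FGF2 and 810.8 in control (−1.70 ± 0.058). Oas1a, an antiviral enzyme, was at −1.62 ± 0.072, and Ddx58, which encodes the RNA sensor RIG-I, was at −0.85 ± 0.055. Ifit3 and Mx2, antiviral proteins, were not well above background with FGF2. They were at least 2.41-fold and 1.80-fold lower after quantile normalization, and 2.30-fold and 1.69-fold with median scaling. The other Ifit3 probes gave bounds of −1.11 and −0.16. Ifitm1, the least reduced of the 6, had 11610 with FGF2 and 17748 in control. Its log2 ratio was −0.48 ± 0.054, and −0.26 in the authors' value table. No interferon gene has a named probe among those listed, so interferon itself was not measured here.

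MHC class II genes, which professional antigen-presenting cells use, were at background. Of 5 genes with a named probe 1 was detected, H2-DMb2, on the control array only, with 167.9 with FGF2 and 198.7 in control. The control signal was so near the floor that no ratio is given. It is named because it was the single gene detected. Probes for H2-Ab1 and Cd74, the class II beta chain and the invariant chain, were detected on neither array.

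All 5 fibroblast markers with a named probe were detected on both arrays. Dcn (decorin) had 9883 with FGF2 and 11748 in control (−0.099 ± 0.070). The collagen genes Col1a1, Col1a2 and Col3a1 were at −2.21, −2.28 and −1.79, and Fbln1 (fibulin 1) was at −1.21. Of 7 leukocyte markers 2 were detected, and the summed signal of all 9 leukocyte probes was 1399 with FGF2 and 1511 in control. The 2 detected probes gave 538.9 and 551.5 of these sums, and the rest came from undetected probes. The sums therefore do not measure how many leukocytes were present. Lyz2 (lysozyme) had 220.2 with FGF2 and 374.8 in control (−0.58 ± 0.094). Cd53, a leukocyte tetraspanin, had 318.7 with FGF2 and 176.7 in control. It was at least 1.82-fold higher after quantile normalization (log2 ratio 0.87, and 0.71 with signals as deposited). The probes for the defining leukocyte markers Ptprc, Csf1r and Itgam were detected on neither array, and the undetected probes of the list lay between 95.2 and 148.8 with FGF2 and between 122.5 and 167 in control. Of 4 epithelial markers Krt18 was at least 1.52-fold higher after quantile normalization (log2 ratio 0.61, and 0.46 with signals as deposited). Cldn4 was at −0.0078. The summed signals of all epithelial probes were 826.2 with FGF2 and 766.4 in control. The 2 detected probes gave 455.5 and 393.5 of these sums. The 1 endothelial marker, Pecam1, was not detected (129.6 with FGF2, 153.2 in control). The part of other cell types in the lower class I genes was not tested. In RNA from whole cultures, fewer cells with a transcript and less of it per cell cannot be told apart.

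H2-K1 and Psmb8 lie in the MHC on chromosome 17, B2m lies on chromosome 2 and Psmb10 on chromosome 8. The lower signals were not shared by all neighbours, taken as the nearest detected named gene on each side in the RefSeq order. Those of H2-K1 were Tapbp, at −0.54, and H2-Ke6, at −0.080. Of those of Psmb8, Notch4, which starts 366 kb away, was at 0.17. The other, H2-DMb2, was detected in control only and so close to the floor that its ratio could not show a reduction. Beside Psmb10, Nutf2 was at 0.28 and Dus2 at 0, with equal normalized signals on both arrays. For B2m, Serf2, which starts 698 kb away, was at −0.61 and Myef2, 2933 kb away, at 0.28. These neighbours were taken by position, not by their values. They need not be adjacent genes, since genes without a named probe or not detected were passed over.

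The order among the 4 genes depended in part on the treatment of background. Psmb10 was lower than H2-K1 and H2-K1 lower than B2m under each of 7 treatments. H2-K1 ranged from −1.12 to −0.86, Psmb10 from −1.24 to −0.97 and B2m from −0.71 to −0.37. Psmb8 ranged from −1.37 to −0.57 over the 6 treatments with a value, and was the lowest of the 4 with background subtracted. Relative to the median of all named genes, B2m lay between −0.62 and −0.49, H2-K1 between −1.07 and −0.89, Psmb10 between −1.35 and −0.99 and Psmb8 between −1.41 and −0.66. Psmb10 was past 2-fold in 5 of 7 treatments, H2-K1 in 1 of 7, Psmb8 in 1 of 6 and B2m in none of 7.

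**Figure D4:**
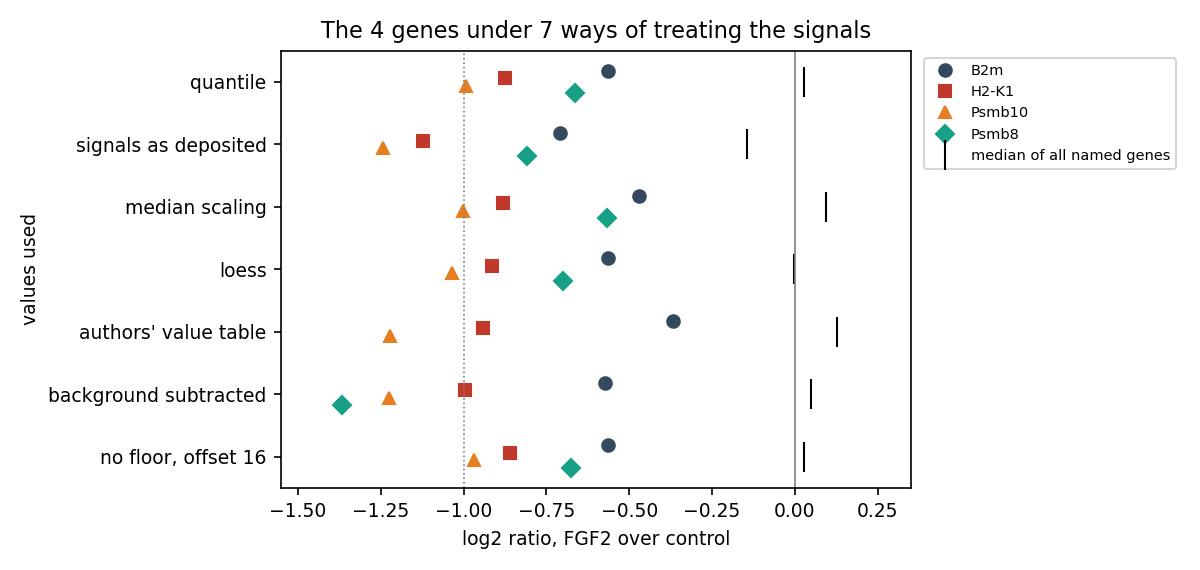
Log2 ratio of FGF2 over control (horizontal axis) of the 4 genes under quantile normalization and 6 other treatments of the signals, with the median of all named genes as a black tick and 2-fold as a dotted line. All points of the 4 genes lie below the median tick of their row; Psmb8 has no value in the authors' value table and moves farthest, to −1.37, when background is subtracted.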

How the data were processed

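The authors processed the arrays with BeadStudio 1.0, per the submitters' processing notes. Per the labels' protocols, 300 ng of total RNA was amplified linearly, with in vitro transcription for 6 h. The deposited files give, per probe, an average intensity, a bead standard deviation and a detection score; no source used here says whether BeadStudio normalized them or subtracted background. The authors' value table holds further deposited intensities, equal to the control signal less 135.4 and to the FGF2 signal less 132.6 times 1.28, and empty under a score of 0.99. Its scale is linear and not centred (medians 276.8 for FGF2 and 262.1 for control), and what set its factor is unknown.

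Of 9523 identifiers starting scl0 or scl00, 93.3% hold a gene number listed in RefSeq (GRCm38.p6), against 36.1% after adding 50. With 9 probes named by accession, 8893 probes name 7413 genes. A gene is represented by the probe with the highest mean signal. Signals were quantile normalized, raised to the lowest detected normalized signal (191.7 for FGF2, 188.45 for control) and log2 transformed (numpy 2.4.6). A gene counted if detected on either array. With 1 array per group, folds are descriptions; the code was tested on simulated data. Array numbers limit the precision.

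The members and the 13 lists, holding 179 genes (82 with a named probe, 51 detected), were chosen with earlier results of these data known. Named are the 4 genes, every detected gene of the class I, loading, immunoproteasome and constitutive catalytic lists, detected markers, and up to 5 genes per other list past 1.5-fold. Other names are range ends, neighbours and undetected genes. Alternatives were no scaling, median scaling, loess (lowess span 0.3), the authors' value table, background subtraction (median signal of probes scoring under 0.5), an offset of 16 with no floor, other detection filters and the mean of probes. A further regulator gene is not reported here.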

Additional observations from a re-analysis of the deposited data

How the results depend on the processing

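All log2 ratios of B2m, H2-K1, Psmb8 and Psmb10 stayed below 0 under the alternatives run. With signals as deposited they were −0.71, −1.12, −0.81 and −1.24, with the median of all genes at −0.14. Median scaling gave −0.47 for B2m and −0.57 for Psmb8. The authors' value table gave −0.37 for B2m and −1.22 for Psmb10, and no value for Psmb8. Background subtraction gave −0.99 for H2-K1, −1.37 for Psmb8 and −1.23 for Psmb10. The other values of these genes moved by less than the bead error, and the mean of probes is the same value, since each has 1 probe. Of the 11 class I pathway genes, 0 were 2-fold lower in the values reported, 2 with signals as deposited, 1 with median scaling, 1 with loess, 2 of 10 in the authors' value table and 3 with background subtracted. At 1.5-fold there were 4, against 3 with median scaling, 6 with loess and 5 of 10 in the authors' value table. There were 9 with signals as deposited and 7 with background subtracted. Over all named genes, 78 were 2-fold lower, against 74 with median scaling, 113 as deposited and 152 with background subtracted. At the same fold 44 were higher, against 28 as deposited, 114 in the authors' value table and 100 with background subtracted. Counts from the authors' value table cover the 2641 genes with a value for both arrays. At 1.5-fold 204 were lower, against 349 as deposited and 341 with background subtracted, and 159 higher, against 81 as deposited, 359 in the authors' value table and 314 with background subtracted. The cause was not tested. No further background was subtracted from the deposited signals for the reported ratios. For the dim probes of Psmb8 and Tapbp these were −0.66 and −0.54, against −1.37 and −1.11 with background subtracted. No paired analysis was possible because each group had 1 sample, and leaving out a replicate was not possible.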
